A study of Mus musculus with 2 samples.

Results

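Lncenc1 and the Platr genes are long non-coding RNAs (lncRNAs) of mouse embryonic stem cells (mESCs). Platr stands for pluripotency-associated transcript, a name given to RNAs whose level falls when mESCs leave the pluripotent state, and many of these transcripts begin in or carry sequence of endogenous retroviruses. Lncenc1, also called linc-Enc1 after its neighbour Enc1, is a lncRNA of naive mESCs that binds the RNA-binding proteins PTBP1 and HNRNPK and has been tied to the expression of glycolysis genes. The records described here were taken from the authors' table of transcripts by name, as Lncenc1 or as Platr followed by a number, where TPM (a level corrected for transcript length and library size) was at least 1 or where reads could be given to an allele. This rule kept 25 genes in 26 records, out of 29833 genes in 37178 records. The table holds 1 record for each gene and transcript biotype, and Platr25 had a protein-coding and a lncRNA record. The members were thus chosen by their TPM and allelic reads, so their levels are a description and carry no test. Platr1 at a TPM of 1.06 and Platr26 at 1.10 lay just inside the limit. Platr13 at 0.577, Platr9 at 0.417 and Platr30 at 0.0436 lay outside it, had no variant, and complete the 28 genes of these names in the table.

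Total RNA was sequenced from F123 mESCs, a male hybrid line from a cross of an S129/Jae mother and a CAST father, so that reads over variants between the parental strains can be given to the CAST or the S129 copy of a gene. The cells had been grown on embryonic fibroblast feeders and were passaged at least 2 times without feeders before harvest. There was a single condition, wild-type cells of this line, with 2 replicate libraries, and the table holds allelic reads summed over both and a single TPM value per record. No spread between replicates could therefore be computed, and all errors below cover counting only. F123 is 1 line from a cross in 1 direction, so the strain of a copy and the parent it came from cannot be told apart.

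The TPM values of all 37178 records were whole multiples of the value of 1 fragment once multiplied by transcript length, within a tolerance of 0.001, and this gave 37998794 fragments in all. The CAST copy took 50.4% of the allelic reads over all records. The defining markers of mESCs were present: Pou5f1 stood at a TPM of 232, Sox2 at 297, Nanog at 169 and Dppa5a at 381. Of the 6 feeder fibroblast markers, 3 had a record at a TPM of at least 1, the highest being a lncRNA record of Thy1 at 7.00, and Dcn and Lum lay at 0.0363 and 0.0369. The part of remaining feeder RNA in the values below was not tested.

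The measured Lncenc1 transcript, Lncenc1-203, lies at chr13:97482955-97489700 on the + strand (mm10) and has 3 exons with 492 bases. Its first exon is shown because it shares a run of 18 bases with the start of Platr14, which lies on chromosome 2. In GENCODE and RefSeq sequence of GRCm38, with the shared run in capitals and everything else in lower case, the first exon of Lncenc1 (chr13:97482955-97483032, + strand) and the 100 bases around the Platr14 start site (chr2:104559409-104559508, + strand) read as follows.
Lncenc1: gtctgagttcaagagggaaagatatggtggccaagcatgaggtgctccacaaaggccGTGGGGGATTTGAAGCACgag
Platr14: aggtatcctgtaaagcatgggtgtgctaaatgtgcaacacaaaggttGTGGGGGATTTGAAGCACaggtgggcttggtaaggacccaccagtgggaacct
The run occupied bases 58 to 75 of the Lncenc1 exon and began 3 bases before the Platr14 start. Of 32851 RefSeq promoter windows of mouse genes, each with 250 bases before and 50 bases after a start site, only the window of Platr14 held it on either strand. The other member windows shared at most 10 bases with this exon. Only exact runs were sought, so a longer likeness with mismatches between Lncenc1 and Platr14 was not measured. The run of 18 bases was not searched for outside these windows.

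Among the measured transcripts of all 29 records of these names, 7 of 406 pairs shared a run of at least 20 bases on the same strand. The longest, of 53 bases, joined Platr15 on chromosome 2 (bases 192 to 244 of its transcript) and Platr13 on chromosome 11 (bases 99 to 151), and transcripts of only these 2 of 55341 GENCODE genes held it.
Platr15 and Platr13: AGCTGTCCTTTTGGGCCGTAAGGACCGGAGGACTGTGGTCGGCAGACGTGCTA
The 6 other pairs shared 22 to 32 bases, and each of those runs occurred in 37 to 516 genes. Platr15 had a TPM of 10.1 from 254 fragments against 0.577 from 14 fragments for Platr13, so transcripts with this common stretch differed in level.

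RefSeq promoter windows were found for 11 of the 25 genes, in 12 windows, and 7 windows lay at the start site of the measured transcript. The windows of Platr7 and Platr26 are shown because their transcripts were strongly unequal between the copies (below) and started where RefSeq places the start. Capitals mark matches to the motifs searched. The Platr7 window lies at chr10:84553289-84553588 on the − strand and the Platr26 window at chr2:71719167-71719466 on the + strand (GRCm38.p6).
Platr7: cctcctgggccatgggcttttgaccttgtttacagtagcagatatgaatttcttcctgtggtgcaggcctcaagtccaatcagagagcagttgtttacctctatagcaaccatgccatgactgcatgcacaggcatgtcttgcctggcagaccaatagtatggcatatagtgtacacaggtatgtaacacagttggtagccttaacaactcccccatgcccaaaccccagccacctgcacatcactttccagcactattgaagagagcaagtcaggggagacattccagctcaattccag
Platr26: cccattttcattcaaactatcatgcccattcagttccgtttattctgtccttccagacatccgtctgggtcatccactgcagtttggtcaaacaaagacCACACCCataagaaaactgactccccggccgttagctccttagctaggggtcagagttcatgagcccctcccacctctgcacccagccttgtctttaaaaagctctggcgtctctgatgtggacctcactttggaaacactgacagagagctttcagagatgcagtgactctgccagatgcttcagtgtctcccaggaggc
Both strands were searched for 5 short motifs, and their matches were few. A match could lie anywhere in a window, so it marks letters only and not a site known to act at that start. The KLF motif GGGTGTG was in the windows of Platr26 and Platr14 (7.95% of all windows), the SOX motif ACAATGG in that of Platr14 (3.66% of all windows) and the TATA box TATAAA in that of Platr5 (13.6% of all windows), where matches on the 2 strands overlapped. No member window held the octamer ATGCAAAT or the ESRRB motif TCAAGGTCA, which were in 1.74% and 0.423% of all windows. RefSeq starts Lncenc1 48.0 kb before the measured transcript, and its windows for Platr3, Platr10 and Platr6 also began elsewhere, 1.18 to 7.07 kb away, so these windows do not belong to the transcripts measured here.

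Levels of the members spanned a wide range. In RNA from a culture as a whole, fewer cells with a transcript and less of it per cell cannot be told apart. The highest was Platr10 with a TPM of 84.7 (95% exact Poisson interval 78.7 to 91.0, from 743 fragments), followed by Lncenc1 with 49.0 (47.4 to 50.6, from 3546 fragments) and Platr16 with 33.6 (33.0 to 34.1, from 14225 fragments). These intervals did not overlap. Next came Platr14 at 31.5, then Platr27 at 26.3, Platr3 at 26.1, Platr4 at 24.3 and Platr5 at 22.5, where the interval of each overlapped that of the next from Platr27 to Platr5. Platr4 and Platr14 have been studied for their part in the differentiation of mESCs. In all, 11 records had a TPM of at least 10, 9 lay from 2 to below 10 and 6 lay below 2. Among the 2309 lncRNA genes at a TPM of at least 1, the median was 3.47 and 22.7% reached 10, against 42.3% of the member records. Platr10 ranked 52 and Lncenc1 ranked 96 among these lncRNA genes.

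**Figure D1:**
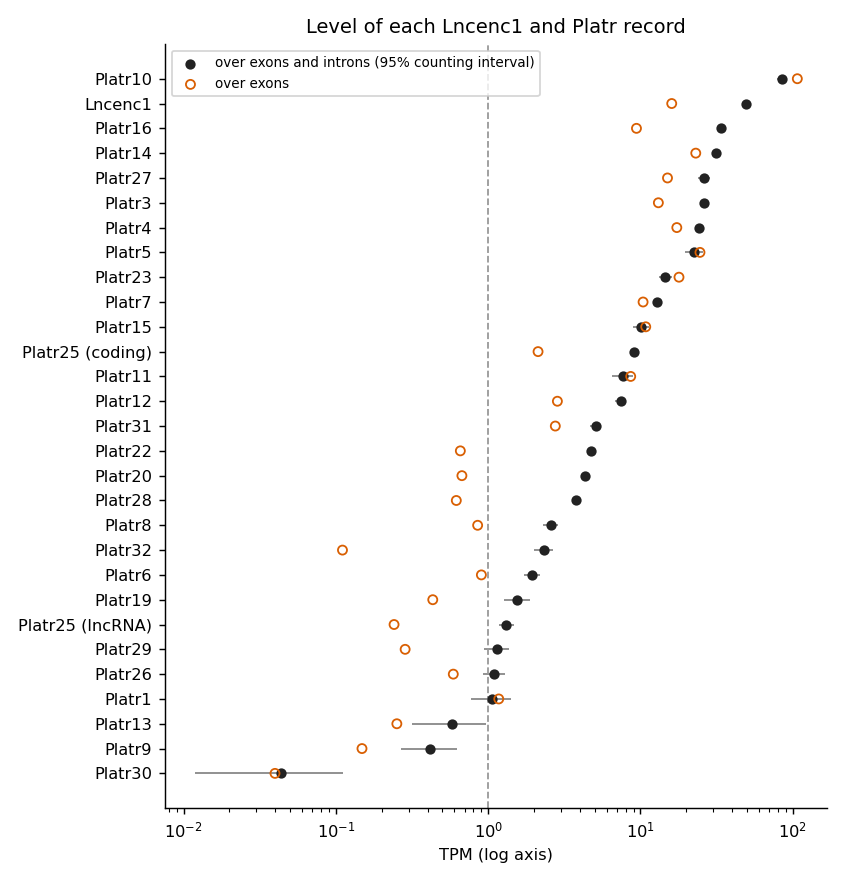
TPM (log axis) of all 29 records of the Lncenc1 and Platr genes, over exons and introns (filled, with 95% exact Poisson intervals of the fragments) and over exons (open); the dashed line marks a TPM of 1. Platr10, at 84.7, and Lncenc1, at 49.0, were highest, and open points lie left of the filled ones for most records.

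The depth behind these levels was uneven. Platr16, whose measured transcript spans 39490 bases, held 37.6% of the fragments of all members, while Platr10, a single exon of 818 bases, reached the highest TPM from 743 fragments. Platr1 rested on 45 fragments, the fewest of the members. TPM over exons was lower than over exons and introns for 20 of the 26 records, with a median ratio of 0.483, beside 63.5% of expressed lncRNA genes and a median ratio of 0.704. For Lncenc1 the TPM over exons was 16.0, a ratio of 0.327, and for Platr16 it was 9.41, a ratio of 0.280. The lowest ratio, 0.0477, was that of Platr32, which lies inside Alpk3 on the same strand, so that reads of these genes may not be separable. Platr10, Platr23, Platr11, Platr1, Platr5 and Platr15 had ratios above 1, from 1.07 to 1.26. Platr10 has no intron and still had the ratio of 1.26. A ratio of 1 thus does not mark equal coverage of exons and introns, and ratios can be compared only with each other.

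The question of the allelic data was which genes the cells express unequally from the CAST and S129 copies. Reads of both copies were compared by a two-sided exact binomial test against equal shares, adjusted by the Benjamini-Hochberg method over all 18632 records with allelic reads, and a record was called allele-specifically expressed (ASE) where the copies differed at least 2-fold, the adjusted p did not exceed 0.05 and TPM reached 1. Of the 26 records, 24 had allelic reads, from 11 for Platr27 to 4932 for the coding record of Platr25. Platr15 and Platr1 had no variant and could not be tested. ASE was called for 6 of 24 records (25%), beside 14.1% of all 15935 tested records and 22.3% of tested lncRNA genes. The S129 copy was higher in 5 of them, Lncenc1, Platr7, Platr26, Platr10 and Platr8 (20.8%, beside 5.78% of all tested records and 11.7% of tested lncRNA genes), and the CAST copy in 1, Platr16 (4.17%, beside 8.33% and 10.5%).

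**Figure D2:**
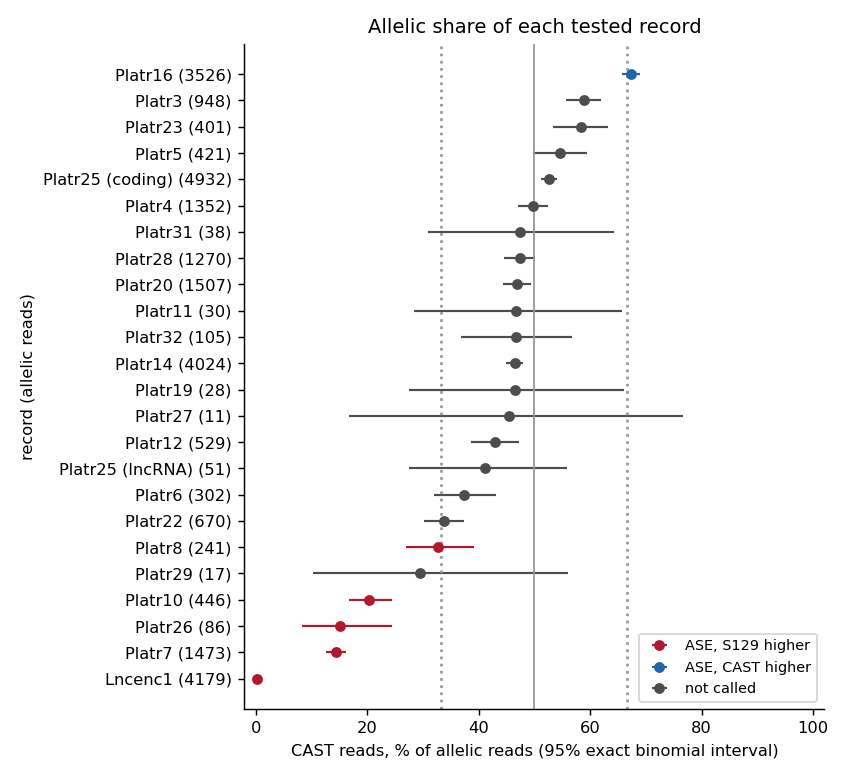
CAST reads as a percentage of allelic reads, with 95% exact binomial intervals, for the 24 tested records of the Lncenc1 and Platr genes; the solid line marks 50% and the dotted lines a 2-fold difference. Lncenc1 lies at 0.191%, Platr7, Platr26 and Platr10 between 14.4% and 20.4%, and Platr16 at 67.3% is the only record called in favour of CAST.

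Lncenc1 was read almost entirely from the S129 copy. It had 8 CAST and 4171 S129 reads over 70 variants, a CAST share of 0.191% (exact interval 0.0827% to 0.377%) and a log2 fold change of -9.03 ± 0.51 (counting SE), so that S129 reads were 521 times as many. Its adjusted exact binomial p was too small to be held by the computation. All 70 variants lay in introns, none in the 492 exonic bases, so the allelic share came from reads outside the annotated exons of this isoform. Other GENCODE isoforms of Lncenc1 end in an exon of 2603 bases at chr13:97494405-97497007. That exon lies outside the span of the measured transcript, and its level and allelic share were not examined. In all, 7 of 24 members had no variant in exons (29.2%), beside 9.82% of all tested records and 28.6% of tested lncRNA genes. The non-reference base was on CAST at 62 of the variants and on S129 at 8. Of 6081 tested records with a TPM of at least 10, 6014 had reads of both copies, and Lncenc1 had the lowest log2 fold change of these. Over all 15935 tested records, 38 had a lower CAST share, each without any CAST read. Among the former 6014, the 3 records closest to it, over these pooled libraries, were the lncRNA C78283 on chromosome 5 with a log2 fold change of -5.17 ± 0.37 and the lncRNA records of Rps19 with -5.07 ± 0.15 and of Pnp with -4.84 ± 0.49. Lncenc1 alone gave 26.6% of all S129 reads of the members, and the CAST share of the members' reads was 41.1% with it and 48.8% without it.

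The records around Lncenc1 did not share a direction. Gm2379, a lncRNA at chr13:97511204-97515730 whose start lies 28.2 kb downstream on the same strand, was the nearest tested record. It had 0 CAST and 150 S129 reads over 11 variants, and the exact interval of its CAST share reached up to 2.43% (adjusted exact binomial p = 3.71e-44). With the absent copy set to 3 reads, S129 reads of Gm2379 were 50-fold higher, a value that follows from this setting and is not a bound. Enc1, which encodes an actin-binding kelch protein and starts 242 kb upstream, had 1369 CAST and 1644 S129 reads, a CAST share of 45.4% (43.6% to 47.2%), and was not called. Of the 8 tested records within 500 kb, 5 were called, in both directions. The examples that follow were named after their values had been seen. Nsa2, a factor of ribosome assembly, had a CAST share of 82.2% and was called for CAST. Gfm2, a mitochondrial translation factor that starts at the same position as Nsa2 on the other strand, had a CAST share of 26.0% and was called for S129. Fam169a, further upstream, and Gm41031, downstream, had shares of 36.8% and 42.8% and were not called.

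**Figure D3:**
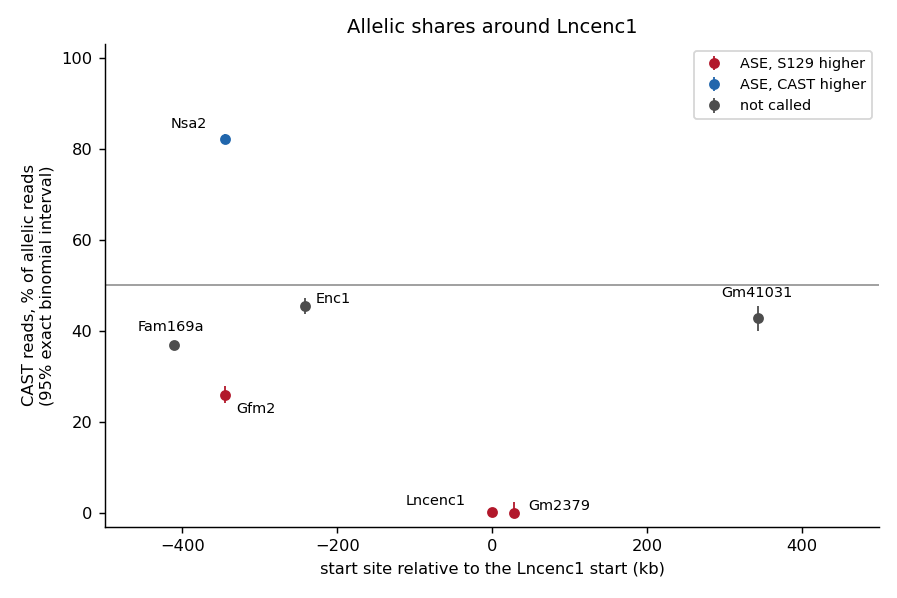
CAST reads as a percentage of allelic reads, with 95% exact binomial intervals, for Lncenc1 and the records within 500 kb that the text names (distance of the start sites in kb). Lncenc1 at 0.191% and Gm2379 at 0% lie at the bottom, while Nsa2 lies at 82.2% and Enc1 at 45.4%.

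Platr7 and Platr26 followed Lncenc1 in the size of the difference. Platr7 (chr10:84547417-84553338, − strand) had 212 CAST and 1261 S129 reads over 42 variants, a CAST share of 14.4% (12.6% to 16.3%) and a log2 fold change of -2.57 ± 0.11. Of its variants 17 lay in exons and 25 in introns. Its nearest tested neighbours were Ckap4, a protein of the endoplasmic reticulum, at a CAST share of 36.7%, and Polr3b, a subunit of RNA polymerase III, at 47.2%, and neither was called. Platr26 (chr2:71719417-71730966, + strand) had only 13 CAST and 73 S129 reads over 5 variants, a share of 15.1% (8.30% to 24.5%) and a log2 fold change of -2.49 ± 0.43. Its neighbour Gm13647, a lncRNA 18.4 kb away, had a share of 42.4% and was not called, and Dlx1as, a lncRNA from the Dlx1 locus 191 kb away, was called for CAST with a share of 66.9% (59.4% to 73.7%).

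Platr10 and Platr8 were the remaining records called for S129. Platr10 (chr3:75647840-75648657, − strand), the member with the highest TPM, had 91 CAST and 355 S129 reads at 4 variants that all lay in its exon. Its CAST share was 20.4% (16.8% to 24.4%) and its log2 fold change -1.96 ± 0.17. The nearest tested records, Pdcd10 and Golim4, had shares of 48.8% and 53.0%, and neither passed the adjusted p. Platr8 (chr2:109902396-109913319, − strand) had 79 CAST and 162 S129 reads over 9 intronic variants, a share of 32.8% (26.9% to 39.1%) and a log2 fold change of -1.04 ± 0.20, so its interval reached across the 2-fold limit. Lgr4, a receptor of R-spondins whose start lies 4.33 kb away on the other strand, had a share of 46.9%, and Lin7c, a scaffold protein, had 59.0%.

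Platr16 was the only member called for CAST. It lies at chr4:145410266-145449756 on the + strand and had 2373 CAST and 1153 S129 reads over 48 intronic variants, a CAST share of 67.3% (65.7% to 68.8%) and a log2 fold change of 1.04 ± 0.05, so its interval too held the 2-fold limit. The nearest tested records did not go the same way: the zinc finger gene Zfp990, 101 kb downstream, was called for S129 with 11 CAST and 48 S129 reads, and Tnfrsf1b, a receptor of tumour necrosis factor, had a share of 53.8% that did not pass. Within 500 kb of the 6 called members, 11 of 43 tested records were ASE (25.6%), beside 14.1% of all tested records. The Lncenc1 window gave 5 of the 11, and the windows of Platr10, Platr7 and Platr8 gave none. Windows of members that were not called varied as well. That of Platr5 held 3 ASE records of 6 and that of the coding record of Platr25 held 4 of 10. Those of Platr20 and Platr4 held 0 of 16 and 0 of 8. A pooled share for uncalled members was not computed, and whether ASE records gather around called members was not tested.

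Among the 18 tested members that were not called, 8 passed the adjusted p at less than 2-fold. Platr22 came nearest to the limit, with 226 CAST and 444 S129 reads and a log2 fold change of -0.97 ± 0.12, and Platr6 followed with 113 and 189 reads and -0.74 ± 0.17. Platr12, with 227 and 302 reads, Platr14, with 1869 and 2155, and Platr20, with 706 and 801, also passed for S129. Platr3, with 558 and 390 reads, Platr23, with 234 and 167, and the coding record of Platr25, with 2595 and 2337, passed for CAST. In all, 10 of 24 members passed for S129 at any fold (41.7%, beside 22.9% of all tested records) and 4 for CAST (16.7%, beside 25.4%). The shares of lncRNA genes alone were not computed for passes at any fold. Depth also differed: members had a median of 433.5 allelic reads and 15.5 variants. The medians were 103.5 and 5 for tested lncRNA genes and 397 and 13 for all tested records.

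The last 10 members did not pass the adjusted p, and their intervals differed widely in width. Platr4 had 673 CAST and 679 S129 reads, a share of 49.8% (47.1% to 52.5%), which bounds any difference closely. Platr28, with 601 and 669 reads, and Platr5, with 230 and 191, also had narrow intervals. Platr27, the fifth highest member by TPM, had a single variant with 5 CAST and 6 S129 reads, and its interval of 16.7% to 76.6% did not resolve even a 2-fold difference. Towards S129 only, the same held for Platr29 (5 CAST and 12 S129 reads), Platr19 (13 and 15), Platr11 (14 and 16), Platr31 (18 and 20) and the lncRNA record of Platr25 (21 and 30). The upper limits of these records, from 55.8% to 66.1%, lay below a 2-fold difference towards CAST. Platr32, with 49 and 56 reads, was the remaining record.

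The CAST copy had fewer reads in 19 of 24 records (79.2%), of which the 10 named above passed the adjusted p, beside 48.1% of all tested records and 49.2% of tested lncRNA genes. The median log2 fold change was -0.21, with quartiles of -0.99 and -0.12, beside a median of 0.01 for all tested records and 0 for lncRNA genes. At 15 of the 24 records every variant carried its non-reference base on CAST, Platr7, Platr10 and Platr26 among them. Over all tested records of that kind the median log2 fold change was -0.01, beside 0.08 where most variants carried it on S129. Platr8 belonged to the latter, with 8 of 9 variants non-reference on S129, the copy with more reads. The part of read mapping to the reference in the members' values was not tested.

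**Figure D4:**
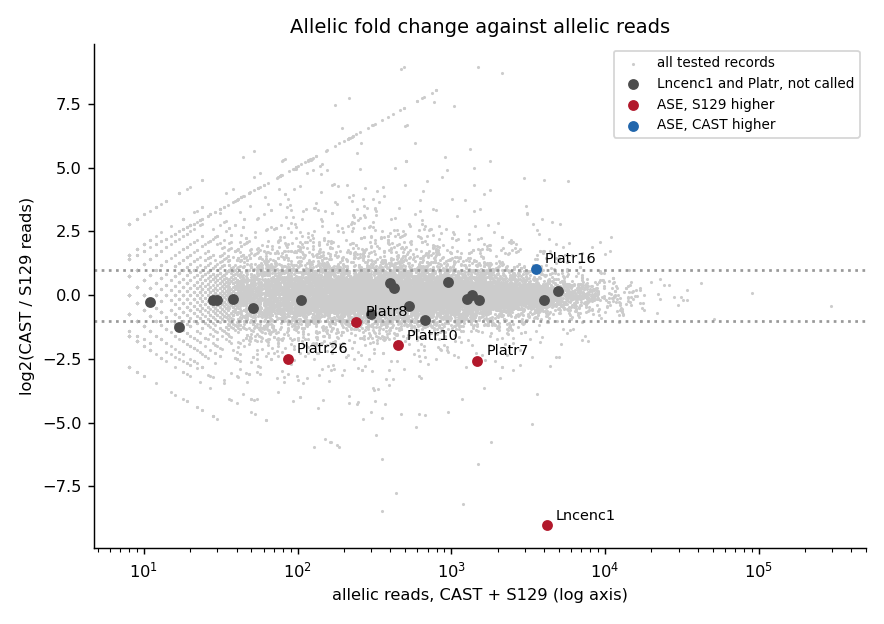
log2 ratio of CAST to S129 reads against allelic reads (log axis) for all 15935 tested records (grey) and the 24 Lncenc1 and Platr records (coloured by call); dotted lines mark 2-fold, and a copy without reads is set to 3 reads. Lncenc1 lies at -9.03, and 38 records without CAST reads have a lower CAST share but are drawn higher because of the 3 reads. Of the 24 members, 19 lie below 0.

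Reads of 1 fragment can be counted at several variants, and the allelic reads of 9 of 24 members exceeded their fragments (37.5%, beside 7.5% of all tested records). Platr5 had 2.06 allelic reads per fragment, Platr7 had 1.80 and Lncenc1 had 1.18, while Platr16 had 0.248 and Platr27 had 0.0224. Scaling such counts down to the fragments left all 6 calls in place. Among the called records it altered only Lncenc1 and Platr7. Platr8, Platr26, Platr10 and Platr16 had 0.801, 0.632, 0.600 and 0.248 reads per fragment and were not scaled. With a correlation of 0.05 between reads of a gene, only Lncenc1 (adjusted beta-binomial p = 1.25e-15) and Platr7 (adjusted beta-binomial p = 0.0123) remained, and Platr26, Platr10, Platr8 and Platr16 had adjusted beta-binomial p of 0.0638, 0.125, 0.935 and 0.869. This made 2 of 24 members (8.33%), beside 3.06% of all tested records. With the mean reads per variant in place of their sum, an alternative chosen after seeing the data, 3 of 24 members remained (12.5%, beside 5.61%): Lncenc1, Platr7 and Platr10. For the comparisons of this paragraph the shares of lncRNA genes alone were not computed, so only all tested records stand beside the members.

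**Figure D5:**
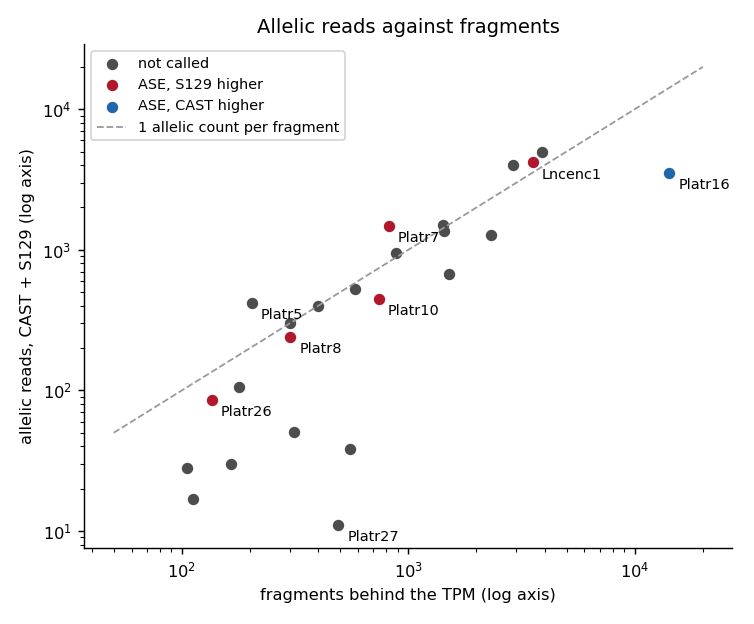
Allelic reads (CAST + S129) against the fragments behind the TPM (both log axes) for the 24 tested Lncenc1 and Platr records, coloured by call; the dashed line marks 1 allelic read per fragment. Platr5 and Platr7 lie above the line, with 2.06 and 1.80 reads per fragment, and Platr16 and Platr27 lie below it.

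Several members overlap another gene or start beside it. Platr23 starts 251 bases from Zfp281, a zinc finger factor of mESCs read from the other strand at a TPM of 106, and their CAST shares were 58.4% (53.4% to 63.2%) and 52.6% (48.3% to 56.9%). Platr20 starts 55 bases from Gm12569, with shares of 46.8% (44.3% to 49.4%) and 55.6% (49.1% to 62.1%). Platr12 overlaps Gpr1 on the other strand, and both leaned the same way, with shares of 42.9% and 42.1%. Platr31 overlaps Tigar, a fructose-bisphosphatase, on the other strand, with shares of 47.4% (31.0% to 64.2%) and 36.5% (34.5% to 38.6%). Platr29 overlaps Gm11464, a lncRNA at a TPM of 0.814, on the same strand, with shares of 29.4% (10.3% to 56.0%) and 71.7% (56.5% to 84.0%). Allelic reads were not stated to be split by strand, so reads in such overlaps cannot be assigned to either gene.

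Other genes of the same biology were mostly not called, as holds for tested records in general. ASE was called for 14.1% of all tested records and 22.3% of tested lncRNA genes, and the short lists below were not tested against these shares. Ptbp1 and Hnrnpk, the protein partners of Lncenc1, had TPM values of 142 and 146, and none of their 3 tested records was called. Of the 8 pluripotency factors, all at a TPM of at least 1, 1 of 11 tested records was called: Prdm14, a repressor of differentiation, had 1765 CAST and 250 S129 reads, a share of 87.6%. Their median log2 fold change was -0.14. Among 13 other lncRNAs studied in mESCs, 10 were in the table and 6 were at a TPM of at least 1. Of these 6, the maternally expressed Meg3 was called for S129 with 59 CAST and 164 S129 reads at 1 variant, and Dancr for CAST with 32 and 13 reads at 1 variant. Gas5, Mir17hg, Oip5os1 and Halr1 were not called, at shares of 60.2%, 45.1%, 55.2% and 48.5%.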

How the data were processed

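Total RNA of F123 mESCs was sequenced in 2 replicate libraries, in paired reads of 75 bp, from 1 µg of RNA per library. Per the labels and the study's methods, the authors aligned reads with STAR 2.7.2c to mm10 (GRCm38.p6), removed duplicates with Picard, and counted reads over exons and introns with HTSeq. The TPM values deposited were made from those reads, scaled to library size and to the length of the transcript. Where a gene had several isoforms, the authors chose by RNA polymerase II marks at the start. Where these did not decide, they took the longest isoform or a random one. Which rule set the transcript of each member was not examined. The deposited CAST and S129 counts are reads over parental variants from GATK, summed over a gene's variants and both libraries. Removing duplicates can cap the reads of highly expressed short transcripts, and summing over variants lets 1 fragment count more than once. Columns of the authors' own p-values, adjusted p-values, ratios, fold changes and classes were not used.

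Here all records were tested together in Python 3.11.15 (scipy 1.17.1) by the exact binomial test against a share of 0.5, with Benjamini-Hochberg adjustment. Thresholds were those of the study: at least 2-fold, adjusted p of at most 0.05 and TPM of at least 1. Intervals are exact (95%, Clopper-Pearson or Poisson), SEs are counting SEs of the log2 ratio, and a copy without reads was set to 3 reads. That setting enters the 2-fold limit. In all, 2249 tested records were called here, somewhat more than the paper reports, so single calls can differ from those of the study. On simulated data with 200 of 15935 records changed 4-fold at the real depths, 180 were called, and 0 of 15735 unchanged records. The simulated reads were independent, and unchanged records were drawn at equal shares, the null of the test itself. Correlated reads and fragments counted more than once were not simulated, so the 0 calls do not measure errors from these. Named neighbours were the nearest tested record on each side of a called member, overlapping records, and starts within 2 kb on the other strand. The members, gene lists and motifs were chosen with earlier results of these data known. Sequences are from GENCODE and RefSeq (GRCm38). All 29 transcripts had the same ends in GENCODE. Platr2, Platr17 and Platr21 were not analysed here, and not every record around Lncenc1 is reported here.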

Additional observations from a re-analysis of the deposited data

How the results depend on the processing

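The values pool both libraries, so no library could be left out. No paired analysis was possible because the deposited columns carry no replicate number. The 6 calls were the same under minimums of 20 reads or 3 variants, no TPM minimum, an adjusted p of at most 0.01, the overall or chromosome CAST share as null, a correlation of 0.01, and adjustment over expressed or lncRNA records only. The first 4 of these settings could not change the calls. Called records had at least 86 allelic reads (Platr26), at least 4 variants (Platr10) and adjusted exact binomial p of at most 4.88e-07 (Platr8). No member with allelic reads had a TPM below 1. Platr26 was lost at 100 reads, Platr26 and Platr8 at a TPM of at least 5, and Platr16 and Platr8 at 3-fold, where 4 to 5 calls remained, while 1.5-fold added Platr22 and Platr6 for 8 calls. A correlation of 0.05 between reads of a gene left 2 calls, Lncenc1 and Platr7, among 487 over all tested records. Of alternatives chosen after seeing the data, counts per fragment kept all 6 calls but altered the counts of only Lncenc1 and Platr7 among them. Mean counts per variant left 3 calls, Lncenc1, Platr7 and Platr10, with adjusted exact binomial p of 0.0612 for Platr16, 0.0895 for Platr26 and 0.643 for Platr8. Requiring a variant in exons also left 3 calls, since Lncenc1, Platr16 and Platr8 have none. Adding 1 read to each copy cannot change the sign of a log2 fold change, and it moved that of Lncenc1 from -9.03 to -8.86. At a TPM of at least 5 there were 15 records, and at 0.5 there were 27. Of the tested neighbours of called members, 21.7% within 200 kb and 19.5% within 1 Mb were ASE. Depth limits 6 members with fewer than 60 allelic reads, and their intervals held both equal shares and a 2-fold difference towards S129.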
